A study of Mus musculus with 15 samples.

Results

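The genes described here are the 33 core genes of the NF-kB pathway measured in mouse macrophages. They are the transcription factor subunits, the kinases and adaptors upstream of them, and the inhibitors that act back on them. They were chosen by name, and array probes were assigned to them by the RefSeq accession that each probe carries. All 33 had a probe that was well above background on every array, and they were tested among 14198 genes, of 20145 genes with a matched probe. By role there were 5 subunits, 3 classical IkB inhibitors, 3 nuclear IkB proteins, 5 genes of A20, its partners and CYLD, 7 kinases and subunits of the IkB kinase (IKK), 9 adaptors, ubiquitin ligases and proteins of the CARD-BCL10-MALT1 group, and Tnfaip2, a gene named for its induction by tumour necrosis factor.

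The macrophages were grown from C57BL/6 bone marrow in macrophage colony-stimulating factor. Knockout cells had the genotype Junb-fl/fl Lyz2-Cre+/+, in which Cre recombinase, expressed from the Lyz2 gene of myeloid cells, deletes the floxed Junb gene, and wild type cells have the genotype label C57BL/6. Cells were mock-treated or received lipopolysaccharide (LPS), a bacterial outer membrane glycolipid sensed by Toll-like receptor 4, at 100 ng/ml for 4 h. Wild type cells gave 8 arrays, 4 for each treatment, and knockout cells gave 7, of which 3 were of LPS-treated wells. The replicates are described as wells, so the p-values reflect well-to-well spread alone, and this may be technical.

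Junb codes for JunB, which pairs with other Jun, Fos and related proteins to form AP-1. Its probe had a processed signal of 1291 to 9574 on the 8 wild type arrays, and it was well above background on none of the 7 knockout arrays. The arrays had between 51.0% and 63.2% of their spots well above background. All 7 macrophage markers with a probe were well above background on every array, and markers of other cells gave mixed readings. The B cell markers Cd79a and Cd79b, the T cell markers Cd3e and Cd4 and the neutrophil markers Elane and Camp were so on all 15 arrays, and Ltf and Klrb1c on 14, while Pax5, Cd3d, Cd8a, Mpo and Cxcr2 were so on no array. The knockout arrays were all on slide 1 and the wild type arrays all on slide 2, so slide and genotype cannot be told apart. Xist, expressed from the inactive X chromosome, stood well above background in the wild type throughout and on none of the knockout arrays, and the Y-linked Ddx3y and Eif2s3y were the reverse. The Y-linked Uty and Kdm5d were well above background on some wild type arrays too. Uty had signals of 14.6 to 123 on wild type and 208 to 1347 on knockout arrays, and Kdm5d 0.58 to 1184 and 30.7 to 87.8. Signals for Lyz2 were 345888 to 448164 on wild type arrays and 869 to 3793 on knockout arrays. Xist, Ddx3y and Eif2s3y divided the arrays just as genotype did, so what goes with them cannot be told apart from genotype. The part of Lyz2 in the differences between genotypes was not tested. The LPS comparisons lie within a slide. Untreated knockout replicate 3 stood apart: 1569 of its 59305 spots lay more than 3 log2 units from the mean of the other arrays of its group. Of these, 1061 were in array columns 106 to 126, 14.0% of the spots there.

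NF-kB proteins are dimers of Rel-family subunits that IkB proteins hold in the cytoplasm of resting cells. Signals from Toll-like receptors activate the kinase TAK1 and then IKK, which marks the IkB proteins for degradation, so that the dimers enter the nucleus. There they switch on inflammatory genes and also their own inhibitors, among them Nfkbia and Tnfaip3, which form negative feedback loops. In macrophages this pathway drives much of the early response to LPS.

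The sequences just upstream of the transcript starts are shown for the members with the largest LPS changes or with a genotype difference of the response, where one was at hand. A window of 250 bases before to 50 bases after the start was matched for 26 of the 33 members in a RefSeq table of build GRCm38.p6, and not for Nfkb1, Relb, Nfkbiz, Ikbkb, Map3k8, Ripk2 and Malt1. The windows were searched on both strands for the NF-kB consensus of 10 bases and for the AP-1 motif TGANTCA. The following are the 250 upstream bases, read 5′ to 3′ along the gene, with letters matching either motif in capitals and all 3 Ikbkg starts that hold a match.
Tnfaip3, chr10:19015411-19015660, minus strand: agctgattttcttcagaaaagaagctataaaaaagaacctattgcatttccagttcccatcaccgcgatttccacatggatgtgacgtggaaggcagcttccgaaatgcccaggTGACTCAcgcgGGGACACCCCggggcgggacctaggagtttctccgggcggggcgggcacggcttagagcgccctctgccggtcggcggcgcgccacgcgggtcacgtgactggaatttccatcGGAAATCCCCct
Tnip1, chr11:54962941-54963190, minus strand: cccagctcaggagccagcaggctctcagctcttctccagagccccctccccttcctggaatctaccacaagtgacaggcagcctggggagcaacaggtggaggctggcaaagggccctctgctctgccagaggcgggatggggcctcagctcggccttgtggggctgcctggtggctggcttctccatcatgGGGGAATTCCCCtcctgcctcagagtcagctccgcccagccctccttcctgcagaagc
Ikbkg, chrX:74393041-74393290, plus strand: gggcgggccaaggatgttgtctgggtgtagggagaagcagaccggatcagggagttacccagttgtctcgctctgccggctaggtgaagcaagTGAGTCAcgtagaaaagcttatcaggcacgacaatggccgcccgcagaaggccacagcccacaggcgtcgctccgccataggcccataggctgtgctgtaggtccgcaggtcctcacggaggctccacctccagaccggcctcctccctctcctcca
Ikbkg, chrX:74424362-74424611, plus strand: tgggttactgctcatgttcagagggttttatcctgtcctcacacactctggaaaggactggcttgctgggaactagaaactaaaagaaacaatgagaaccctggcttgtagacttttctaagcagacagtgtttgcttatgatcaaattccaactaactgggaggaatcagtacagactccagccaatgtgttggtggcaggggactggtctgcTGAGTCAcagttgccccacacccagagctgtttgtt
Ikbkg, chrX:74429431-74429680, plus strand: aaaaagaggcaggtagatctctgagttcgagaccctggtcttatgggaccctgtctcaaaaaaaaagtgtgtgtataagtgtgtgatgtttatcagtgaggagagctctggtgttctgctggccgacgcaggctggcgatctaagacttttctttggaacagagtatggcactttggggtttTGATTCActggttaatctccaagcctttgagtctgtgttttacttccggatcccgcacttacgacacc
Traf1, chr2:34961773-34962022, minus strand: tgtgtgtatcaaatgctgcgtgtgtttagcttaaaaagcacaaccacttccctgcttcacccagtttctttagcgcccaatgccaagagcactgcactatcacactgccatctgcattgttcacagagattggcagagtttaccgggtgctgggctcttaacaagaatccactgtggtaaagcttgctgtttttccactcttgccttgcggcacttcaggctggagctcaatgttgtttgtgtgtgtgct
Map3k14, chr11:103267402-103267651, minus strand: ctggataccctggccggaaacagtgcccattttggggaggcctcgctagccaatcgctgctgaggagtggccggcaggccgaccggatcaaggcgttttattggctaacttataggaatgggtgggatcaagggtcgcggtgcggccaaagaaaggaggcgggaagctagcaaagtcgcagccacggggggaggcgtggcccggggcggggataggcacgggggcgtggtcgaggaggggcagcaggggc

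Tnfaip3 held an AP-1 match and a pair of NF-kB matches in this stretch. In Tnip1 the run GGGGAATTCCCC held 3 overlapping NF-kB matches, 58 to 56 bases before the start, and there was no AP-1 match. Ikbkg held an AP-1 match at 3 of its 4 annotated starts and no NF-kB match. Traf1, which rose strongly with LPS, and Map3k14, which fell, held neither motif in the window. Over all members with a window, 14 of 26 held an NF-kB match (53.8%), against 9.55% of 27025 genes in the table. These 14 were Nfkb2, Rel, Nfkbia, Nfkbie, Nfkbid, Bcl3, Tnfaip3, Tnip1, Tnip3, Cyld, Map3k7, Tank, Bcl10 and Tnfaip2. An AP-1 match was present in 5 of 26 (19.2%), against 8.97% of all genes in the table, and these were Nfkb2, Nfkbie, Tnfaip3, Ikbkg and Tank. A gene counts when any of its annotated starts holds a match, so more starts give more room for one. The 26 members had 39 windows, against 32851 windows for the 27025 genes, and Ikbkg and Tank had 4 each. No NF-kB match overlapped an AP-1 match. A match describes letters and is not evidence of binding.

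**Figure D1:**
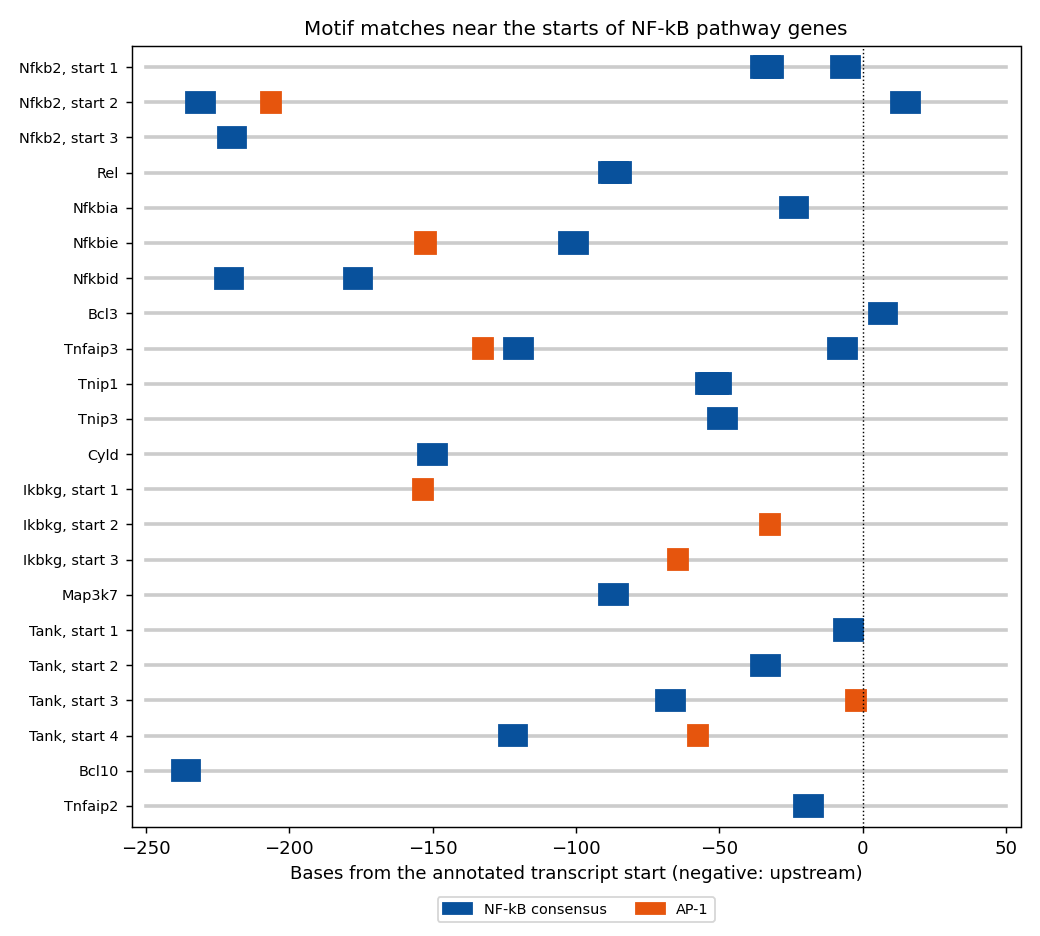
Positions of NF-kB consensus (blue, 10 bases) and AP-1 (orange, 7 bases) matches in the windows of member genes that hold at least 1 match. The x axis gives bases from the annotated transcript start (dotted line), and each grey line is 1 window of 300 bases. Most matches lie upstream of the start; Tank and Nfkb2 have several annotated starts.

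LPS raised most of the 33 members in both genotypes. In wild type cells 30 of the 33 members were higher with LPS, 1 was lower and 2 did not pass (limma, Benjamini-Hochberg adjusted p under 0.05 over all genes tested). Of all genes tested, 34.9% were higher and 25.5% lower in that comparison. In knockout cells 29 members were higher, 1 was lower and 3 did not pass, where 32.5% of all genes were higher and 27.5% lower. Map3k14 was the member that fell in both genotypes, and Cyld and Map3k7 passed in neither. The median log2 fold change of the members was 1.82 in wild type and 1.70 in knockout cells, against 0.14 and 0.19 for all genes. The members' LPS arrays lay entirely above the untreated arrays for 31 of 33 genes in wild type and for 30 of 33 in knockout cells. The same held for 31% and 36.6% of all genes. Signals were scaled to each array's 75th percentile. With quantile normalisation in its place, the median log2 fold change of all genes shifted to -0.12 and -0.08, that of the members was 1.08 and 1.28, and Relb and Chuk no longer passed in either genotype, nor Tab2 in wild type cells.

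The 3 classes did not separate by direction. All 5 subunits rose in both genotypes, with a median log2 fold change of 2.29 in wild type and 2.26 in knockout cells. Of the 11 inhibitors and feedback proteins 10 rose in both, with medians of 1.49 and 1.77. Of the 16 kinases and adaptors 14 rose and 1 fell in wild type cells, where the median was 1.79, and 13 rose and 1 fell in knockout cells, where it was 1.60. The kinases and adaptors held both ends of the range in wild type cells, from -3.10 for Map3k14 to 4.41 for Ripk2, whereas the subunits lay between 0.92 and 2.57.

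**Figure D2:**
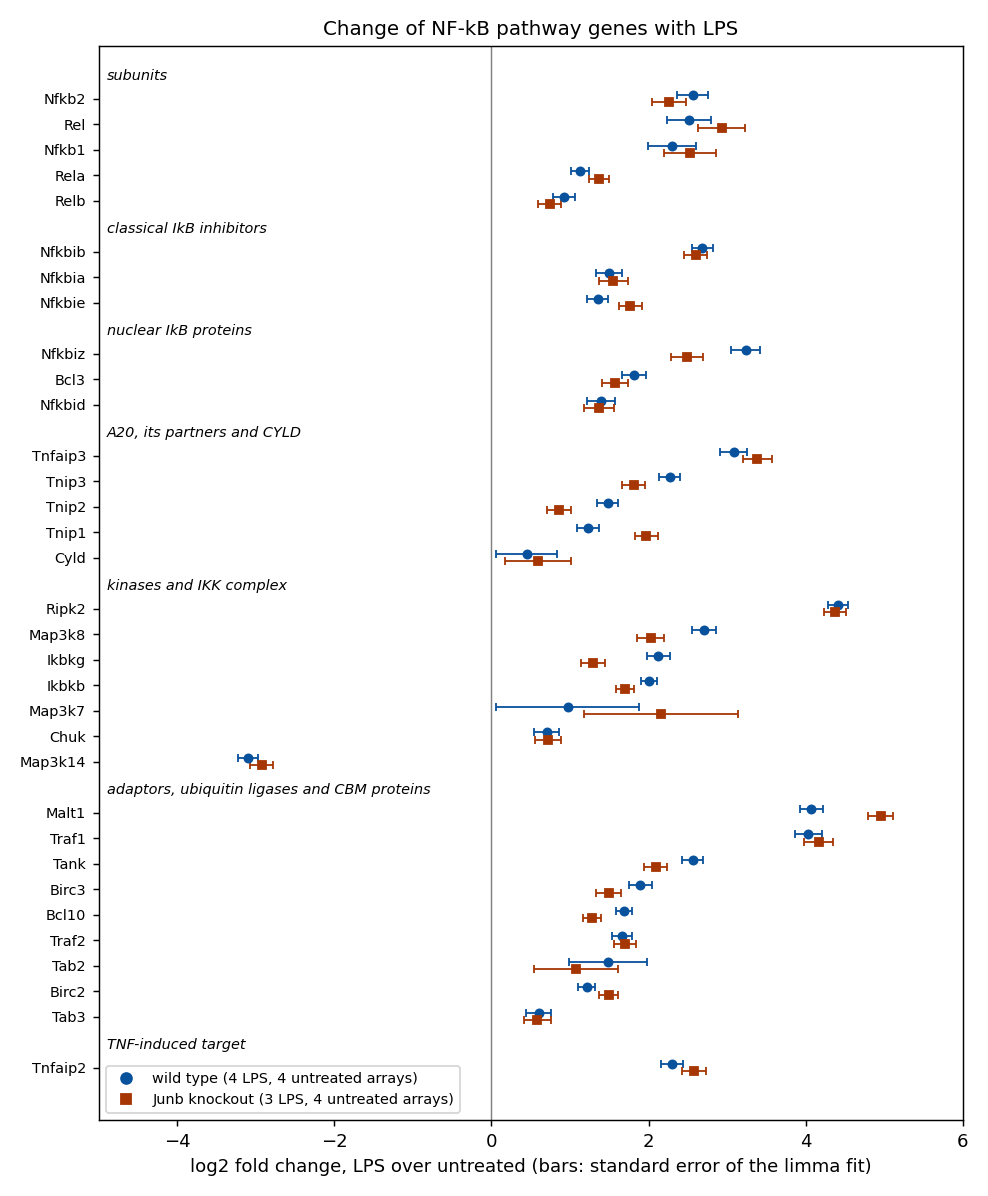
Log2 fold change with LPS (x axis) of the 33 members, grouped by role, in wild type (blue circles) and Junb knockout cells (red squares), with the standard error of the fit as bars. All symbols but those of Map3k14 lie to the right of 0, and the symbols of Map3k7, Cyld and Tab2 carry the widest bars.

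All 5 subunits rose, Nfkb2, Rel and Nfkb1 by more than 2 log2 units and Rela and Relb by less. Nfkb2, which encodes the precursor p100, rose by 2.57 ± 0.20 (SE) on the log2 scale in wild type and by 2.26 ± 0.21 in knockout cells. Rel, the c-Rel subunit, was a dim gene, with log2 values of -4.37 to -2.95 in untreated wild type cells and -1.22 to -0.46 with LPS. It rose by 2.52 ± 0.28 in wild type and by 2.93 ± 0.30 in knockout cells. Nfkb1, the gene of the precursor p105, rose by 2.29 ± 0.31 and 2.52 ± 0.33. Its untreated wild type arrays fell into a lower pair of 1.39 and 1.77 and a higher pair of 2.82 and 2.95, all under the LPS arrays at 4.17 to 4.92. Rela, which encodes the p65 subunit of the classical dimer, rose less, by 1.13 ± 0.12 and 1.37 ± 0.13. Relb, the partner of p52 in the non-canonical dimer, rose by 0.92 ± 0.14 and 0.74 ± 0.15, the smallest change of the 5.

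The classical IkB inhibitors all rose. Nfkbib, which encodes IkB-beta, rose 6.42-fold in wild type and 6.06-fold in knockout cells. Nfkbia, the gene of IkB-alpha, rose 2.81-fold and 2.93-fold. Its signal with LPS was 210148 to 289295. Nfkbie, the gene of IkB-epsilon, rose 2.56-fold and 3.41-fold. Of the nuclear IkB proteins, which bind the subunits on DNA, Bcl3 rose 3.53-fold and 2.97-fold and Nfkbid 2.63-fold and 2.58-fold.

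Nfkbiz, the third nuclear member and a coactivator of secondary response genes such as Il6, rose most of the IkB family in wild type cells on the probes used, and less than Nfkbib in knockout cells. On the untreated wild type arrays its log2 values were 0.53, -0.09, -0.20 and 0.10, and with LPS they were 3.22, 3.58, 3.22 and 3.26. On the untreated knockout arrays they were -0.08, 0.06, -0.08 and 0.01, and with LPS 2.52, 2.0 and 2.89. The untreated arrays of both genotypes overlapped, while every LPS array of the knockout lay below every LPS array of the wild type. The rise was 3.23 ± 0.19 (SE) in wild type and 2.49 ± 0.20 in knockout cells. The difference of the responses, -0.74 ± 0.28, did not pass (adjusted p = 0.111, limma), and the knockout level with LPS was 1.80-fold lower (adjusted p = 0.00613, limma).

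A20, encoded by Tnfaip3, is a ubiquitin-editing enzyme that shuts down signalling to IKK. Untreated wild type arrays read 4.41, 5.04, 5.03 and 5.26 for Tnfaip3, and LPS arrays 8.02, 8.04, 7.83 and 8.17. Untreated knockout arrays read 4.81, 4.78, 4.75 and 4.38, and LPS arrays 7.97, 8.30 and 7.92. The LPS arrays of both genotypes overlapped and stood far above all untreated arrays. The rise was 8.47-fold in wild type and 10.5-fold in knockout cells, and the difference of the responses, 0.30, had a 95% interval of -0.24 to 0.85. The A20-binding proteins Tnip2 and Tnip3 rose 2.79-fold and 4.81-fold in wild type and 1.81-fold and 3.51-fold in knockout cells. The third, Tnip1, is described with the response differences. Cyld, a deubiquitinase, did not pass in either genotype, with changes of 0.45 ± 0.39 (SE) and 0.59 ± 0.42. On untreated knockout replicate 3 Cyld read -0.02, against -2.52 to -1.19 on the other 3 arrays of that group; without this array its change in knockout cells was 1.01 (adjusted p = 0.0176, limma).

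Ripk2, the kinase that links the NOD receptors to TAK1 and IKK, rose most among the members in wild type cells. It read -0.97, -0.85, -0.86 and -1.17 on the untreated wild type arrays and 3.45, 3.65, 3.45 and 3.25 with LPS. On the knockout arrays it read -1.38, -1.20, -1.53 and -1.47 without and 3.01, 2.70 and 3.22 with LPS. All LPS arrays stood more than 3 log2 units above all untreated arrays, and the knockout arrays lay below the wild type arrays both without and with LPS. The rise was 21.3-fold in wild type and 20.7-fold in knockout cells (adjusted p = 3.40e-12 and 1.19e-11, limma).

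Map3k8, also called TPL2, joins NF-kB signalling to the ERK cascade, and its protein is held by p105 in resting cells. It read 1.93, 2.21, 2.37 and 2.25 on the untreated wild type arrays and 5.18, 4.80, 5.06 and 4.52 with LPS. The knockout arrays read 2.56, 2.83, 2.72 and 2.33 without and 4.70, 4.64 and 4.57 with LPS. Without LPS most knockout arrays lay above the wild type arrays, and with LPS the knockout arrays lay within the wild type range. The rise was 6.5-fold in wild type and 4.07-fold in knockout cells, and the difference of -0.68 ± 0.23 (SE) did not pass (adjusted p = 0.077, limma).

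Map3k14 encodes NIK, the kinase that triggers the non-canonical pathway, in which p100 is processed to p52. It read 1.33, 1.32, 1.18 and 1.11 on the untreated wild type arrays and -2.0, -1.59, -1.80 and -2.07 with LPS. It read 1.48, 1.63 and 1.34 on untreated knockout replicates 1, 2 and 4, the spot of replicate 3 being marked by the scanner software and left out, and -1.40, -1.61 and -1.32 with LPS. Among the values used, no LPS array came within 2 log2 units of an untreated array. The spot left out had a processed signal of 700. On the other untreated knockout arrays the signal was 1711 to 4622, and on the LPS-treated ones 159 to 289. The level was 8.56-fold lower with LPS in wild type and 7.6-fold lower in knockout cells (adjusted p = 2.25e-10 and 1.98e-09, limma). A second Map3k14 probe lay near the floor of the scale and did not pass, with changes of -0.17 ± 0.23 (SE) and -0.37 ± 0.25.

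The IKK subunits rose together. Ikbkb, the kinase subunit of the classical pathway, rose 4.03-fold in wild type and 3.25-fold in knockout cells. Chuk, the IKK-alpha subunit, rose 1.63-fold and 1.65-fold. With quantile normalisation its change in wild type cells was -0.02, so the direction of Chuk depends on the scaling. Map3k7, which encodes TAK1, had 3 probes. On the brightest it read 2.0 to 2.83 and 3.11 to 3.66 on untreated and LPS wild type arrays, and 3.03, 2.80, -2.57 and 2.49 on the untreated knockout arrays. The low value was on replicate 3, where the spot lies in the columns that stood apart. The Map3k14 spot left out lies there too, while 6 other member spots in those columns deviated by -0.43 to 0.49 from the rest of their group. With all arrays the change of Map3k7 was 0.97 ± 0.91 (SE) and 2.16 ± 0.98. Without that array it was 0.97 and 0.83, and both passed (adjusted p = 0.000441 and 0.00457, limma).

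Traf1, a signalling adaptor whose gene is a known NF-kB target, rose by about as much as Malt1 in wild type cells. It read 3.16, 3.46, 3.70 and 3.91 on the untreated wild type arrays and 7.81, 7.64, 7.39 and 7.51 with LPS. The knockout arrays read 3.52, 3.68, 3.68 and 3.22 without and 7.76, 7.89 and 7.42 with LPS. The genotypes overlapped in both conditions. The rise was 16.4-fold in wild type and 17.96-fold in knockout cells, and the 95% interval of the difference ran from -0.41 to 0.67 on the log2 scale.

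The other adaptors rose less. Tank, which binds TRAF proteins and TBK1, rose 5.91-fold in wild type and 4.26-fold in knockout cells. Birc3 and Birc2, the ubiquitin ligases cIAP2 and cIAP1, rose 3.72-fold and 2.32-fold in wild type and both by 2.81-fold in knockout cells. Bcl10, the partner of MALT1, rose 3.22-fold and 2.44-fold, and Traf2 3.15-fold and 3.25-fold. Tab3, an adaptor of TAK1, rose 1.52-fold and 1.5-fold. Tab2, the other TAK1 adaptor, rose 2.80-fold in wild type cells (adjusted p = 0.0179, limma) and did not pass in knockout cells, with 1.08 ± 0.53 (SE). On untreated knockout replicate 4 Tab2 read 7.23, against 4.33 to 4.74 on the other 3 arrays; without that array its change in knockout cells was 1.74 (adjusted p = 6.91e-05, limma). Tnfaip2 rose 4.92-fold and 5.98-fold.

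**Figure D3:**
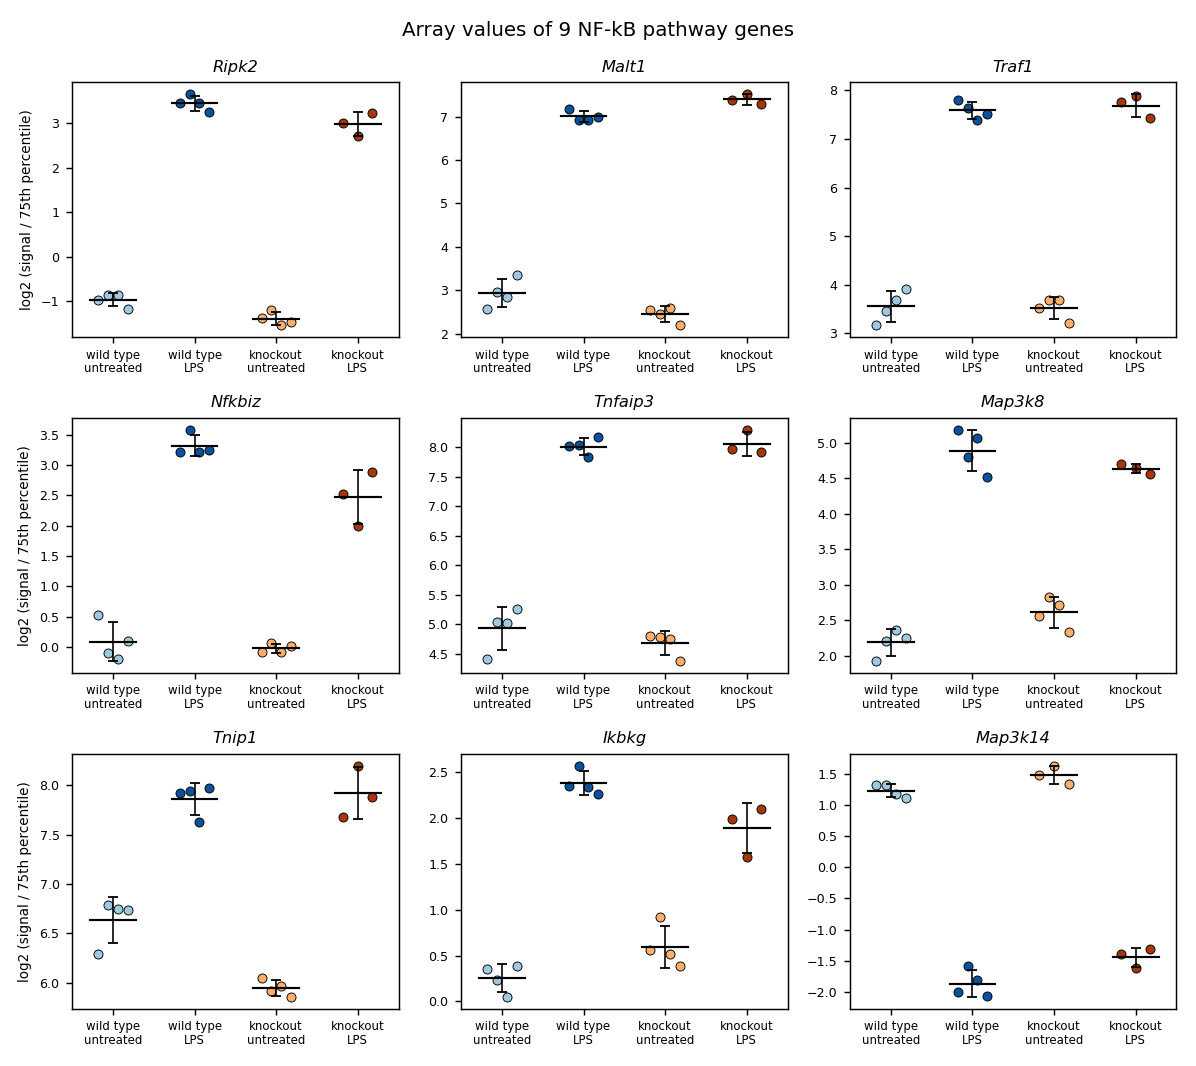
Values on each array (points), group mean (line) and SD (bar) of the members with the largest LPS changes or a called response difference. The y axis is log2 of the processed signal over the array's 75th percentile, on its own range in each panel. Map3k14 is the panel that falls with LPS; in the Tnip1 and Malt1 panels the knockout starts lower.

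For 3 members the size of the LPS response differed by genotype (limma, adjusted p under 0.05 over all genes). Tnip1 and Malt1 rose more in knockout cells and Ikbkg rose less. Over all genes 2.92% were called higher and 7.17% lower in this comparison, so the members' share called, 2 higher and 1 lower of 33, is near that of all genes. The median difference over the members was -0.02 log2 units, against -0.06 over all genes.

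Ikbkg encodes NEMO, the regulatory subunit through which IKK binds ubiquitin chains. On the wild type arrays it read 0.36, 0.24, 0.05 and 0.39 without and 2.35, 2.57, 2.34 and 2.26 with LPS. On the knockout arrays it read 0.56, 0.93, 0.51 and 0.39 without and 2.0, 1.58 and 2.1 with LPS. The knockout arrays began at or above the highest wild type array and ended below the lowest. The rise was 4.36-fold in wild type and 2.45-fold in knockout cells, a difference of -0.83 ± 0.21 (SE) log2 units (95% interval -1.29 to -0.37, adjusted p = 0.0243, limma). A second Ikbkg probe gave -0.54 ± 0.15 (adjusted p = 0.0485, limma over all probes). With LPS, knockout minus wild type was -0.49 on the probe used and -0.20 on the second, which did not pass (adjusted p = 0.0357 and 0.192, limma over all probes). With normexp background correction the response difference on the probe used was -0.69 and did not pass (adjusted p = 0.066, limma). The call was also lost without LPS-treated knockout replicate 3, the lowest of its group (-0.68, adjusted p = 0.0718, limma), without untreated wild type replicate 3 (-0.76, adjusted p = 0.0536) and without LPS-treated wild type replicate 2 (-0.77, adjusted p = 0.0509). Ikbkg and Tab3 lie on the X chromosome, and the part of the Xist difference in their values cannot be told apart from that of genotype.

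Malt1 encodes the protease of the CARD-BCL10-MALT1 complex, best known for antigen receptor signalling and also used by dectin receptors of macrophages. On the wild type arrays it read 2.57, 2.97, 2.85 and 3.35 without and 7.19, 6.92, 6.92 and 7.0 with LPS. On the knockout arrays it read 2.56, 2.44, 2.59 and 2.19 without and 7.39, 7.53 and 7.28 with LPS. The knockout arrays ranged lower before LPS, with some overlap, and all lay above the wild type arrays after it. The rise was 16.8-fold in wild type and 31.0-fold in knockout cells, a difference of 0.88 ± 0.22 (SE) log2 units (95% interval 0.40 to 1.36, adjusted p = 0.0224, limma). The call was lost without LPS-treated knockout replicate 3 (0.82, adjusted p = 0.0676, limma) and with normexp background correction (0.70, adjusted p = 0.0715, limma). It was also lost with the replicate number as a block (0.87, adjusted p = 0.0632, limma) and in the authors' deposited table (0.81, adjusted p = 0.0618, limma).

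Tnip1, also called ABIN-1, binds ubiquitin and A20. On the wild type arrays it read 6.29, 6.78, 6.74 and 6.74 without and 7.92, 7.95, 7.63 and 7.98 with LPS. On the knockout arrays it read 6.05, 5.91, 5.97 and 5.85 without and 7.68, 8.2 and 7.88 with LPS. The genotypes were apart without LPS and overlapped with it. The rise was 2.34-fold in wild type and 3.93-fold in knockout cells, a difference of 0.74 ± 0.21 (SE) log2 units (95% interval 0.30 to 1.19, adjusted p = 0.0352, limma). A second, dimmer Tnip1 probe gave 0.27 ± 0.18 (adjusted p = 0.441, limma over all probes), with rises of 2.12 and 2.38 log2 units in wild type and knockout cells. With normexp background correction the difference on the brightest probe was 0.28 (adjusted p = 0.427, limma), and with the mean of both probes it was 0.51 (adjusted p = 0.0835, limma). The call of Tnip1 held without untreated wild type replicate 1 or 4, without LPS-treated wild type replicate 4 and without LPS-treated knockout replicate 2, and was lost without each of the other 11 arrays (0.60 to 0.78, adjusted p = 0.0516 to 0.108, limma).

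The other 30 members did not pass. The nearest were Tnip2 at -0.62 (adjusted p = 0.0681, limma), Map3k8 and Nfkbiz, all with a smaller rise in knockout cells. A second Tnip2 probe gave -0.20 ± 0.19 (SE), with adjusted p = 0.577 (limma over all probes). For several members the estimate was small, with an interval on both sides of no difference. The difference of Ripk2 was -0.04 (95% interval -0.46 to 0.38), that of Nfkbib -0.08 (-0.51 to 0.34) and that of Traf2 0.04 (-0.36 to 0.45). For Map3k7 the interval ran from -1.69 to 4.07, so a sizeable difference in either direction was not detectable.

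**Figure D4:**
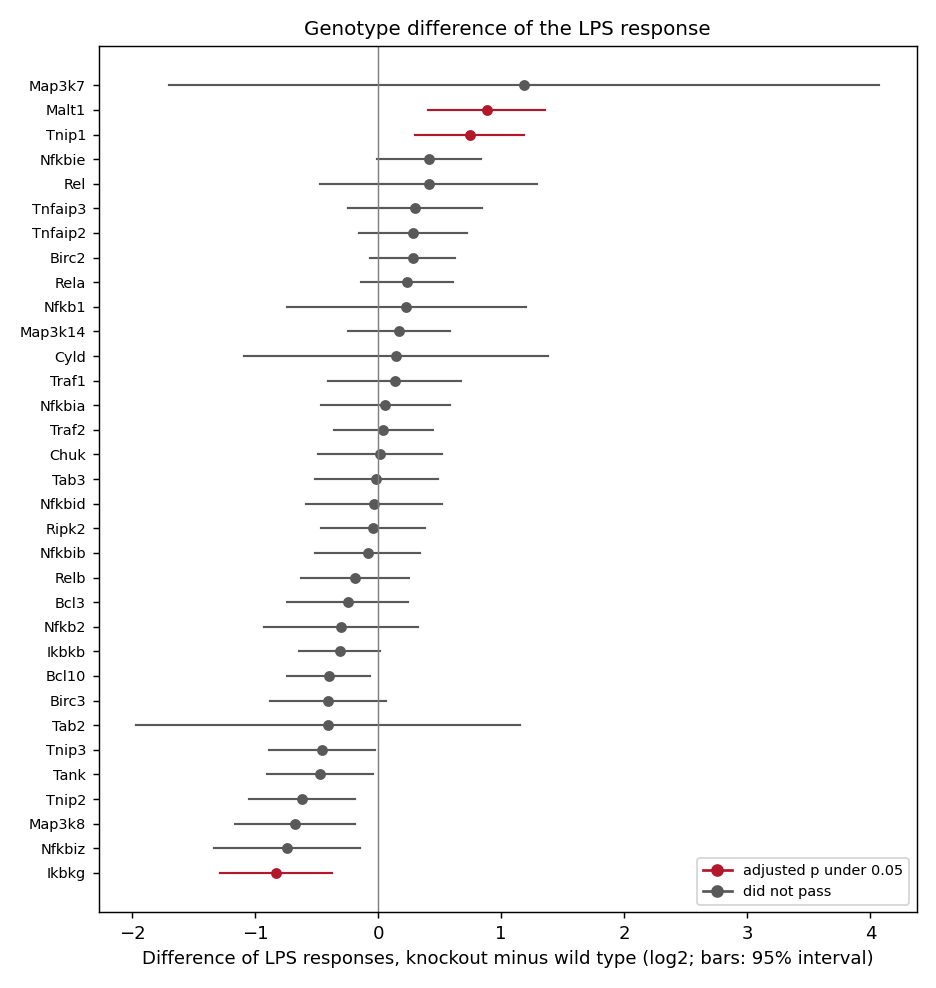
Difference of the LPS responses, knockout minus wild type, for the 33 members (points, log2) with 95% intervals (lines), ordered by size. Ikbkg lies lowest; Tnip1 and Malt1 are the members called on the other side, and the point of Map3k7 at the top has the widest interval.

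Knockout and wild type levels were also compared within each condition. Without LPS 6 members passed (limma), Tab3 higher in knockout cells and Tnip1, Malt1, Nfkbie, Ripk2 and Tnfaip2 lower. Of all genes 11.9% were higher and 5.83% lower. Tnip1 had the largest difference, 1.61-fold lower in knockout cells (adjusted p = 0.00357, limma), and on its second probe it was -0.16 log2 units. Malt1 was 1.40-fold, Tnfaip2 1.37-fold, Nfkbie 1.36-fold and Ripk2 1.35-fold lower, and Tab3 was 1.43-fold higher. These 5 had adjusted p-values between 0.0342 and 0.0393, and the count of called members depended on single arrays. It was 1 without untreated knockout replicate 1, 2 without untreated knockout replicate 3 or untreated wild type replicate 2 or 3, and 3 without untreated or LPS-treated knockout replicate 2.

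With LPS 9 members passed (limma). Nfkbiz, Tank, Nfkb2, Birc3, Ikbkg and Ripk2 were lower in knockout cells, and Birc2, Tab3 and Map3k14 were higher. Of all genes 13.6% were higher and 17.1% lower, so the members' share called, 3 higher and 6 lower of 33, is near that of all genes. Tank was 1.56-fold lower (adjusted p = 0.00498, limma), Nfkb2 also 1.56-fold (adjusted p = 0.0348, limma) and Birc3 1.46-fold lower (adjusted p = 0.0205, limma). Birc2 differed in the other direction from Birc3 and was 1.36-fold higher in knockout cells (adjusted p = 0.0129, limma). Tab3 was higher by a like amount in both conditions, 1.43-fold without and 1.42-fold with LPS. Leaving out LPS-treated knockout replicate 3 or LPS-treated wild type replicate 2 left 4 called members, and leaving out LPS-treated knockout replicate 2 left 5.

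Where a gene had more than 1 kept probe, the probes gave the same direction of the LPS change, and for several genes another sign of the genotype difference. For Nfkb1 the probes differed in the sign of the genotype difference of the response, with 0.23 ± 0.46 (SE) for the brightest and -0.81 ± 0.25 for the other (adjusted p = 0.803 and 0.0810, limma over all probes). With LPS, knockout minus wild type was 0.74 ± 0.33 on the brightest Nfkb1 probe and -0.71 ± 0.19 on the other (adjusted p = 0.124 and 0.0133, limma over all probes). For Tnip3 the values were -0.46 ± 0.20 and 0.29 ± 0.27, and for Nfkbib, on 3 probes, -0.08, 0.16 and -0.11. For Nfkbib and Tnip3 the genotype difference with LPS turned as well. It was -0.21 ± 0.15 on the Nfkbib probe used and 0.55 ± 0.14 on a dimmer one (adjusted p = 0.324 and 0.0118, limma over all probes). For Tnip3 it was -0.24 ± 0.15 and 0.60 ± 0.20 (adjusted p = 0.268 and 0.0405, limma over all probes), and the rise in knockout cells was 1.81 on the probe used and 3.16 on the other. Without LPS, the Nfkbib probes gave -0.13 and 0.39, and the third -0.51, none of which passed. The second Traf2 probe gave a response difference of -0.16 against 0.04, and the second Map3k14 probe -0.20 against 0.17. Map3k7 rose on its second probe by 1.12 ± 0.18 in wild type cells (adjusted p = 0.000195, limma over all probes), and its change of 0.40 ± 0.21 in knockout cells did not pass (adjusted p = 0.131). The third probe gave 0.42 ± 0.17 and 0.36 ± 0.19, neither of which passed (adjusted p = 0.0575 and 0.129, limma over all probes). The response difference of Map3k7 was -0.72 on the second and -0.06 on the third probe, against 1.19 on the probe used. Between genotypes these probes gave 0.23 and 0.07 without LPS, against -1.01, and -0.49 and 0.01 with LPS, against 0.18, and none passed.

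**Figure D5:**
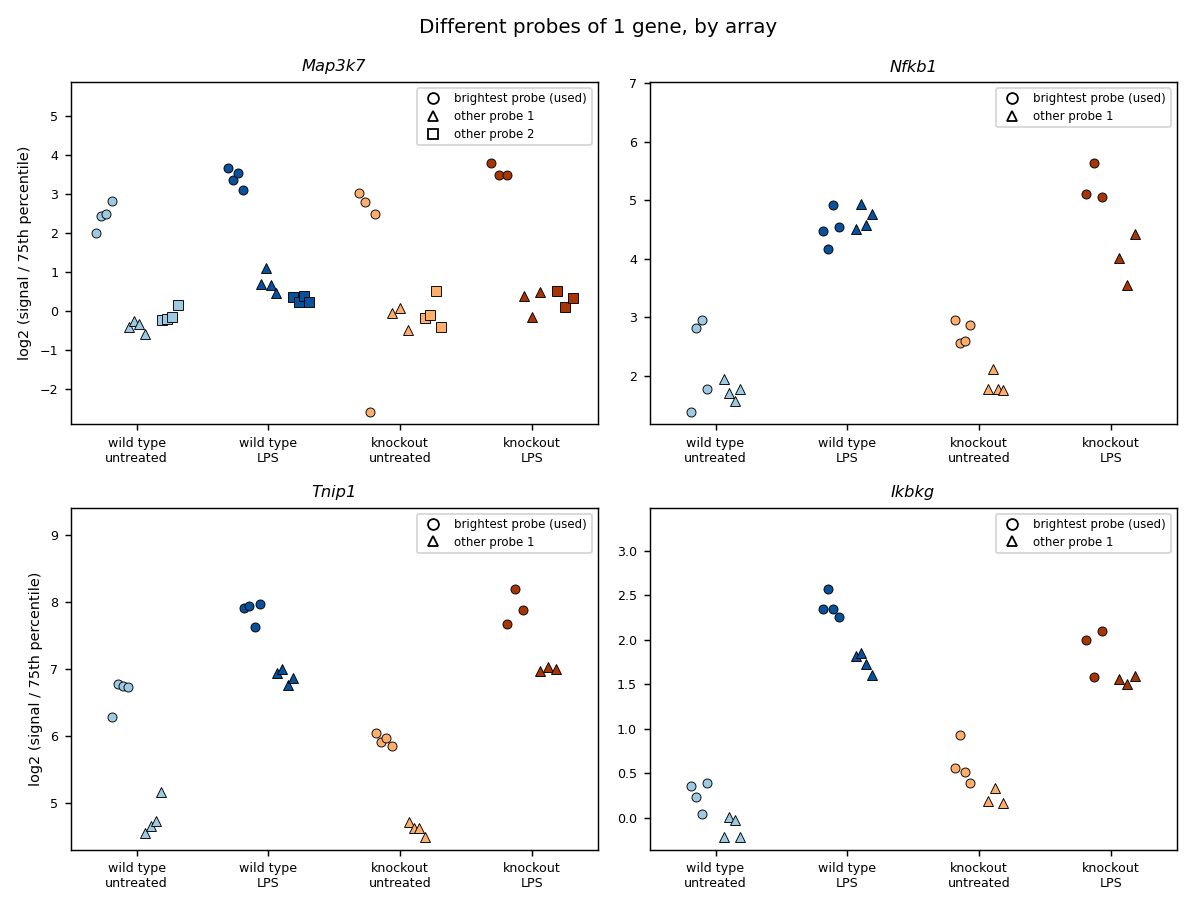
Values on each array for each kept probe of Map3k7, Nfkb1, Tnip1 and Ikbkg, on the y axis as log2 of signal over the array's 75th percentile. Circles are the probe used for the gene, and triangles and squares are its other probes. The single circle at -2.57 in the Map3k7 panel is untreated knockout replicate 3.

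Other genes of the pathway were taken from lists that were chosen with earlier results of these data known. In a list of 15 receptor-proximal genes, among them Tlr4, 11 rose and 4 fell with LPS in both genotypes (limma). The shares over all genes were 34.9% higher and 25.5% lower in wild type, and 32.5% and 27.5% in knockout cells. For the response difference they were 2.92% higher and 7.17% lower. In that list 1 gene had a called response difference. This was Irak4, a kinase of the MyD88 complex, which fell by 0.68 in wild type and by 1.31 in knockout cells. Of 25 further ubiquitin enzymes and regulators, 11 rose and 3 fell in wild type, and 11 rose and 5 fell in knockout cells. Among those called in neither genotype, Otud7b, Ube2v1, Sharpin and Ikbke had standard errors of 0.71 to 1.34. A sizeable LPS change of these genes was not detectable. In this list the response differed for Usp18, a negative regulator of interferon signalling (1.59 ± 0.30 SE), and for the kinases Tbk1 (-0.80 ± 0.19) and Ripk1 (-0.60 ± 0.16). Without LPS, knockout minus wild type was -2.08 for Usp18. It was 0.16 for Tbk1 and 0.24 for Ripk1, and neither of these passed. With LPS it was -0.50 for Usp18, which did not pass, -0.64 for Tbk1 and -0.36 for Ripk1. All 22 listed target genes rose in both genotypes, with a median log2 fold change of 4.20 and 4.24. The response differed for 4 of the targets. Vcam1, an adhesion molecule, the C-type lectin receptor Clec4e and the cytokine gene Tnf rose more in knockout cells. The difference was 0.84 ± 0.21 for Vcam1 and 0.85 ± 0.24 for Clec4e, and it was 0.78 ± 0.23 for Tnf, named because it completes the count. Cd83, an activation marker, rose less, with a difference of -1.14 ± 0.24. The levels differed before LPS: knockout minus wild type was -1.30 for Tnf, -0.89 for Clec4e, 1.83 for Cd83 and -0.27 for Vcam1, of which that of Vcam1 did not pass. With LPS it was -0.51 for Tnf, -0.04 for Clec4e, which did not pass, 0.69 for Cd83 and 0.57 for Vcam1. Over the 22 targets 2 were higher and 7 lower in untreated knockout cells, and 2 were higher and 4 lower with LPS. The shares over all genes were 11.9% higher and 5.83% lower without LPS, and 13.6% and 17.1% with it.

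Some markers of other cells moved with LPS as well. The summed level of the 5 stromal markers, relative to the 75th percentile, went from 1.65 to 2.64 without LPS to 5.74 to 8.84 with it in wild type cells, and from 2.27 to 2.91 to 16.4 to 17.3 in knockout cells. Pdgfrb, one of these 5, rose most with LPS and had a signal of 103 to 10546. Of 7 neutrophil markers with a probe, 3 passed the filter, Elane, Camp and Ltf. These summed to 1.45 to 2.33 without and 5.98 to 8.29 with LPS in wild type cells, and to 1.14 to 1.28 and 4.70 to 5.49 in knockout cells. Single markers did not all rise: 1 of the 3 was called higher with LPS in wild type and 2 in knockout cells (limma). Camp had a signal of 391 to 8072 over all arrays, Elane 233 to 769 and Ltf 37.4 to 169. Siglech, a dendritic cell marker, had a signal of 101892 to 235749 on all arrays. The rest of the dendritic cell list was far dimmer. Highest signals were 115 for Flt3, 127 for Zbtb46, 266 for Ccr7 and 337 for Xcr1. Clec9a reached 38.6 at most and failed the filter. The 2 B cell markers that passed, Cd79a and Cd79b, summed to at most 0.640, and the 3 T and NK cell markers that passed to at most 1.62. The part of these cells in the pathway's values was not tested. In bulk RNA, fewer cells of a type and less RNA per cell cannot be told apart.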

How the data were processed

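RNA of 15 wells was hybridised to 1-colour Agilent arrays. Processed signals are the deposited intensity values per spot, background-subtracted by Agilent Feature Extraction 10.7.3.1 per the file headers, with probes of mouse build mm9. They were divided by the array's 75th percentile over 59305 non-control spots, floored at 0.0436 and taken to log2. The 4827 spots marked as outliers were left out. Probes well above background on 3 or more arrays of a group were kept, and each gene took its brightest probe. The authors also deposited a table of log2 values, used as an alternative. Group means were fitted with limma 3.58.1 in R 4.3.3 over 14198 genes, with Benjamini-Hochberg adjustment at 0.05 within each comparison. The script was tested on simulated data. The 75th percentile was 482 to 1490, and the number of arrays limits the precision. All members are named by role, with array values for the 6 largest wild type rises, the fall and the members with a called response difference; promoters are shown only for these. In the other lists genes with a called response difference are named. Other kept probes are given where they differ in sign or by over 1 log2 unit. The normexp alternative used the median spot signal in place of the planned mean. Alternatives covered background correction, normalisation, filters, probe choice, the deposited table, the replicate number as a block and each array left out. The members and lists were chosen with earlier results of these data known.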

Additional observations from a re-analysis of the deposited data

Results flagged for a closer look

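In 13 of 98 groups of 4 arrays (13.3%), 1 array stood apart from the rest by Dixon's criterion, where chance gives about 1 in 20. Among untreated wild type arrays these were Rel on replicate 4 (-4.37), Traf2 on replicate 4 (3.63), and Bcl3 (4.76), Tnip1 (6.29) and Tab3 (1.18) on replicate 1. With LPS they were Nfkbiz (3.58) and Ikbkb (4.69) on wild type replicate 2 and Tnip1 (7.62) on wild type replicate 3. Among untreated knockout arrays they were Relb on replicate 2 (4.23), Map3k7 on replicate 3 (-2.57), and Tnfaip3 (4.38), Tab2 (7.24) and Tab3 (1.72) on replicate 4. All are log2 values relative to the array's 75th percentile.

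The LPS response differed between the genotypes, by the limma test of the difference, for Ikbkg (-0.83 log2 units), Tnip1 (0.74) and Malt1 (0.88).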

How the results depend on the processing

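The LPS calls of Ripk2, Traf1, Malt1, Nfkbiz, Tnfaip3 and Map3k14 held under every alternative that measured them. In the authors' deposited log2 table, which holds 24 of the 33 members, 17 were higher with LPS in wild type and 16 in knockout cells, and 0 passed for the response difference (3 at an unadjusted p under 0.05), 0 for untreated genotypes (4 unadjusted) and 1 for genotypes with LPS. There Tnip3 (-0.25) and Bcl10 (-1.11) turned in wild type cells and Tank turned with LPS between genotypes (1.17), none past the limma threshold. Chuk turned under quantile normalisation (-0.023). With normexp 0 members passed for the response difference (7 unadjusted) and 0 for untreated genotypes (7 unadjusted). The replicate number as a block left 1 member for the response difference (Ikbkg) and 2 for untreated genotypes (Tnip1 and Tnfaip2). Around their group means, same-numbered arrays correlated between -0.53 and 0.56. Arrays of different numbers were not compared, so these values cannot tell whether the numbers pair the samples. Without the 3 arrays of widest spread, chosen after seeing the data, 5 passed for the response difference and 3 for untreated genotypes. Leaving out each array in turn gave 30 to 31 and 29 to 31 members higher with LPS in wild type and knockout cells, 1 to 1 lower in both, 0 to 5 for the response difference (0 without LPS-treated knockout replicate 3, with 5 unadjusted; 5 without LPS-treated wild type replicate 4), 1 to 7 for untreated genotypes and 4 to 12 with LPS. For the 3 members called, the response difference kept its sign in every alternative that measured them, and passed in 19 of 23 for Ikbkg, 9 of 23 for Tnip1 and 20 of 24 for Malt1. The causes were not tested. All members were well above background on every array, and 0 spots were saturated.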

Other observations

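The authors' deposited log2 table was set against each array's quantile-normalised median spot signal. Each of the 15 columns ranked best with its own array (lowest Spearman 0.968), but 2458 of 755670 cells (0.325%) lay more than 3 log2 units from it. Of these, untreated knockout replicate 3 held 1029, and replicates 3 and 1 of the LPS-treated wild type held 853 and 219. The most frequent single value in these columns was 7.35 (3202 cells), 7.48 (2531 cells) and 7.46 (1597 cells). Bcl10 and Tnip3 had that value on LPS-treated wild type replicate 3, where log2 of their spot signal was 16.06 and 15.49. Tank had it on LPS-treated wild type replicate 1 against 14.68, and Map3k8 on untreated knockout replicate 3 against 12.86. For Map3k7 on untreated knockout replicate 3 the table gives 12.98 where the spot gives 7.81.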
